A study of Mus musculus with 12 samples.

Results

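The inflammasome components measured here were 8 genes of mouse macrophages: the sensors Nlrp3, Aim2 and Nlrp1b, the NLRP3 partner Nek7, the adaptor Pycard (ASC), and the caspase genes Casp1, Casp4 (which encodes caspase-11) and Casp8. They were chosen by gene symbol, and all 8 were among the 38739 symbols of the deposited table. RNA was sequenced from bone marrow-derived macrophages (BMDMs) of WT and cGAS-/- mice, either untreated (UT, media control) or stimulated with LPS, the bacterial lipopolysaccharide, in 4 groups of 3 samples. Per the methods, the WT mice were C57BL/6J, the cGAS knockout was in the same background, and only 8-week-old males were used. The knockout was carried by the whole animal and not by macrophages alone. The WT mice were purchased, while the knockout mice were provided by another university. Genotype and source of the mice therefore cannot be told apart here. The dose and duration of LPS differ between sources: 150 ng/mL and 24 h in the methods, but 100 ng/mL and 1 h in the sample labels, whose extraction step also names neutrophils. Which time applies was not tested, so "LPS" below stands for either. A legend of the study describes replicates as technical, so p-values measure the spread between these samples, which need not be the spread between mice.

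An inflammasome is a protein complex that forms in the cytosol when a sensor meets a danger signal: NLRP3 responds to many stresses such as potassium efflux, with the kinase NEK7 bound to it, AIM2 binds double-stranded DNA, and NLRP1B responds to proteases and to the loss of its DPP9 brake. The sensor gathers the adaptor ASC, which recruits pro-caspase-1, and active caspase-1 cleaves pro-IL-1β, pro-IL-18 and the pore-forming protein gasdermin D. Caspase-11 binds LPS in the cytosol and cleaves gasdermin D directly, and caspase-8 can join ASC complexes and also decides between apoptosis and necroptosis. In macrophages, LPS is the classical priming signal that raises NLRP3 through NF-κB before a second signal sets off the complex. The cGAS protein is itself a sensor of cytosolic DNA that feeds the STING and interferon pathway. RNA levels show the supply of these parts and not whether a complex has formed.

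Values are TPM, a transcript abundance corrected for length and for the size of the library, averaged by the authors over the transcripts of each symbol. WT LPS replicate 3 stood apart, with a total of 709802 against 447189 to 503156 in the other 11 samples, a share of 31.7% for the ferritin pseudogene Fth-ps3 and of 18.5% for all protein-coding genes. For all 8 members it was the lowest of the 3 WT LPS samples. The tests of the members and the counts of the pathway lists are therefore given with and without it. The number of reads is unknown. Cgas, the targeted gene, did not overlap between genotypes (WT from 1.19 to 3.25 TPM, cGAS-/- from 0.0703 to 0.291 TPM). The 9 listed macrophage markers summed to 17570 to 18322 TPM in WT UT, 16909 to 26874 in WT LPS, 20820 to 22681 in cGAS-/- UT, and 33805 to 34267 in cGAS-/- LPS samples, so this sum also moved with the groups. Most of it was Lyz2, a lysozyme gene that neutrophils express too. Mertk, which marks macrophages, was at 3.10 to 22.4 TPM in the 12 samples. The 6 B-cell markers used summed to between 67.4 and 99.03 TPM in WT UT, 30.4 and 40.0 in WT LPS, 4.71 and 11.7 in cGAS-/- UT, and 2.92 and 7.92 in cGAS-/- LPS samples. The sum thus moved with genotype and, in WT cells, with LPS, and most of it was the immunoglobulin gene Igkc (1.79 to 97.0 TPM), while Pax5, the B-lineage factor, stayed at or below 0.0221 TPM in every sample. The 10 listed neutrophil markers summed to between 173 and 243 TPM in WT UT, 92 and 403 in WT LPS, 85.8 and 157 in cGAS-/- UT, and 98.1 and 125 in cGAS-/- LPS samples. Elane was at 0 in 7 of 12 samples, Mpo in 3 and Camp in 2. S100a8 (8.43 to 165 TPM), S100a9 (12.5 to 181), Csf3r (11.6 to 49.0) and Mmp8 (14.1 to 38.7) were above 0 in every sample. The part of these marker sets in the results for the members was not tested. In bulk RNA, fewer cells of a type and less RNA per cell cannot be told apart.

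The genes lie on chromosomes 1 (Aim2, Casp8, Nek7), 7 (Pycard), 9 (Casp1, Casp4) and 11 (Nlrp3, Nlrp1b) of GRCm39. Of these, Nlrp3 (chr11:59432394-59457782, plus strand), Casp4 (chr9:5308828-5336783, plus strand), Nlrp1b (chr11:71043928-71121559, minus strand) and Nek7 (chr1:138410613-138550306, minus strand) passed the test for LPS in WT cells. Stretches of 100 bases from before the most upstream RefSeq start of 3 of them are shown because these genes moved with LPS in both genotypes. The sequences come from RefSeq (GRCm38.p6) and were matched exactly and once to GRCm39, where no annotated exon overlaps them. They are written 5′ to 3′ on the gene's strand, with a motif match in capitals.
Nlrp3, chr11:59432164-59432263, plus strand: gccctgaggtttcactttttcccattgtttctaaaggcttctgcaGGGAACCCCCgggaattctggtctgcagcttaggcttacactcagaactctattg
Casp4, chr9:5308712-5308811, plus strand: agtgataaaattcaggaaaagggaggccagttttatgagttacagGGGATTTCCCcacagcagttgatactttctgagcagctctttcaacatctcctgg
Nlrp1b, chr11:71121603-71121702, minus strand: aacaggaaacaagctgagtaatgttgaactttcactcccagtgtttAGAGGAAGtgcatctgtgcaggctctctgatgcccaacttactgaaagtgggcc

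The capitals in the Nlrp3 and Casp4 stretches match GGGANNNNCC, a short form of the NF-κB motif, on either strand, and begin 186 and 92 bases before the start. NF-κB is the transcription factor through which LPS acts on many genes. The same letters were found in 3 of the 8 members, the third being Nek7 (GGGAGGGGCC, 32 bases before the start), and in 17.6% of the 32851 RefSeq promoters over the same 250 bases. Nek7 fell with LPS in WT cells, so the match was present in members that moved either way. The capitals in the Nlrp1b stretch match AGAGGAAG, a form of the motif of the macrophage factor PU.1, which 3.67% of promoters held and 1 of the 8 members. A form of the interferon-stimulated response element, GAAANNGAAA, was in 2.98% of promoters and in none of these 8 windows. Annotated exons of any gene covered all 250 bases of the Casp1 and Pycard windows and 125 of those of Nek7. The windows of Aim2, Casp8 and Nek7 lay inside the GENCODE spans of these genes. A match is a string of letters and does not show that a factor was bound.

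Nlrp3, the best known of the sensors, was lowest in WT UT and highest in cGAS-/- LPS cells. Its values, in the order of replicates 1, 2 and 3 as below, were 3.56, 4.57 and 3.19 TPM in WT UT cells and 12.6, 14.1 and 8.71 TPM in WT LPS cells. Those of cGAS-/- cells were 8.31, 10.3 and 7.55 TPM without LPS and 25.6, 22.3 and 24.4 TPM with LPS. The lowest WT LPS value was above the highest WT UT value, and the 3 cGAS-/- LPS values were above all other samples. Only WT LPS and cGAS-/- UT, the middle groups, overlapped. Group means were 3.77 ± 0.717 TPM (SD, n = 3) in WT UT, 8.71 ± 1.39 in cGAS-/- UT, 11.8 ± 2.78 in WT LPS and 24.1 ± 1.65 in cGAS-/- LPS cells.

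Nlrp1b, the sensor of proteases, moved the other way with LPS. It was at 4.8, 5.54 and 4.98 TPM in WT UT cells and at 0.535, 1.19 and 0.0281 TPM in WT LPS cells. The cGAS-/- cells had 6.71, 6.66 and 6.12 TPM without LPS and 0.716, 0.689 and 0.540 TPM with LPS. All 6 LPS samples lay below all 6 UT samples, and cGAS-/- UT samples lay above WT UT samples. Nlrp1a, a neighbouring family member that shares stretches of Nlrp1b at 90.2% identity over 307 bases, was between 0.525 and 2.89 TPM in the 12 samples, so reads of the pair could have been split.

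Aim2, the DNA sensor, showed a small spread of group means. It was at 6.89, 8.43 and 5.88 TPM in WT UT and at 9.51, 12.8 and 5.13 TPM in WT LPS cells. Without cGAS it was at 6.78, 5.99 and 6.17 TPM in UT and at 9.52, 8.17 and 11.3 TPM in LPS cells. Neighbouring groups in the order of means overlapped at each step, although the cGAS-/- LPS samples were all above the cGAS-/- UT samples. The pseudogene-like symbol Gm7871 shares 29.1% of an Aim2 transcript and was at 0 in all UT samples and between 0 and 1.23 TPM with LPS.

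Nek7, the kinase that NLRP3 binds, was lower in every LPS sample than in any UT sample. Its values were 15.6, 15.2 and 14.4 TPM in WT UT and 5.80, 8.93 and 2.12 TPM in WT LPS cells. The cGAS-/- samples held 16.9, 18.1 and 19.6 TPM without LPS and 7.87, 7.79 and 7.97 TPM with LPS. The cGAS-/- UT values lay above the WT UT values, and the LPS groups overlapped.

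Pycard, which encodes the ASC adaptor, and Casp1, the effector protease gene, had wide WT LPS groups. Pycard was at 60.5, 65.2 and 49.2 TPM in WT UT and at 96.7, 68.7 and 5.92 TPM in WT LPS cells. Without cGAS, Pycard was at 48.0, 52.8 and 39.8 TPM without LPS and at 33.9, 42.4 and 37.6 TPM with LPS. All neighbouring groups of Pycard overlapped, and without WT LPS replicate 3 the WT LPS samples would be above all others. The antisense gene Gm45205 covers 58.6% of a Pycard transcript and was at or below 1.57 TPM. The library kit keeps strand, but whether strand was used in counting is not given in the sources used here.

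Casp1 was at 21.5, 24.1 and 22.4 TPM in WT UT and at 53.8, 65.4 and 18.8 TPM in WT LPS cells. Without cGAS, Casp1 was at 20.6, 21.7 and 21.6 TPM without LPS and at 37.4, 38.7 and 42.7 TPM with LPS. Replicate 3 of WT LPS was below every UT sample, while the other 5 LPS samples were above all 6 UT samples.

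Casp4, the gene of the LPS-binding caspase-11, rose from a low level. It was at 2.0, 3.04 and 2.88 TPM in WT UT and at 18.4, 20.4 and 14.3 TPM in WT LPS cells. The cGAS-/- samples held 1.6, 2.11 and 1.74 TPM without LPS and 9.34, 9.68 and 7.47 TPM with LPS. No WT LPS value overlapped a cGAS-/- LPS value, and both LPS groups were clear of both UT groups, which overlapped each other.

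Casp8, the apoptosis initiator that ASC can also recruit, was most spread in WT LPS cells. It was at 22.0, 23.5 and 23.5 TPM in WT UT and at 24.1, 41.8 and 5.87 TPM in WT LPS cells. The cGAS-/- samples held 18.5, 17.1 and 19.3 TPM without LPS and 26.2, 26.7 and 27.2 TPM with LPS. The cGAS-/- UT samples were below, and the cGAS-/- LPS samples above, the WT UT samples. The symbol Gm70432 matches 19.2% of a Casp8 transcript at 94.2% identity, so reads could have been split here too.

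**Figure D1:**
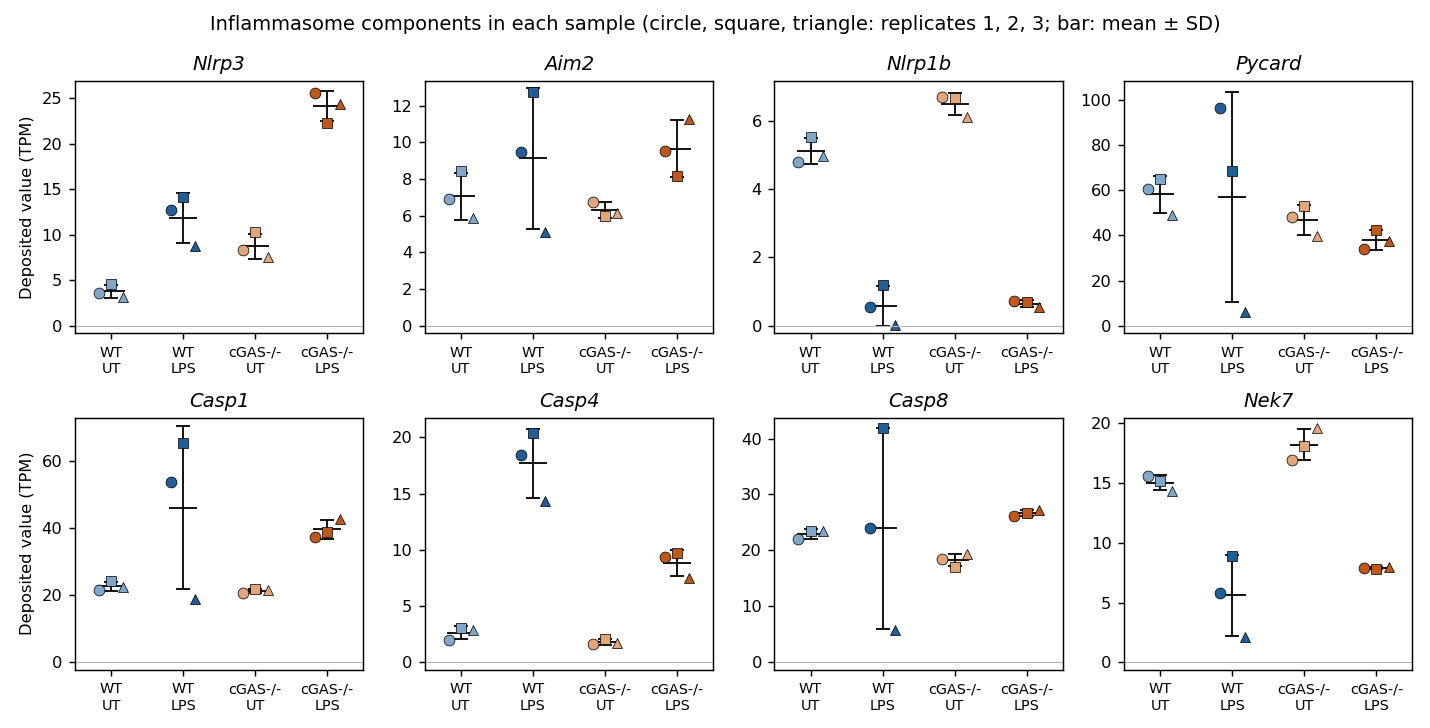
Deposited values in TPM (vertical axes, from 0) of the 8 inflammasome components in the 4 groups, with 3 samples each; points are samples (circle, square and triangle for replicates 1, 2 and 3), long bars the mean and whiskers the SD. WT LPS replicate 3, the dark blue triangle, is the lowest WT LPS sample in every panel, and the 3 cGAS-/- LPS samples of Nlrp3, between 22.3 and 25.6 TPM, sit above all others.

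Levels of different members are not strictly comparable, because the deposited value is an average over an unstated number of transcripts. For 3 members the decimals gave that number, which was 3 for Nlrp3 and 7 for Aim2 and Casp4. Multiplied by it, Nlrp3 stood at 11.3 ± 2.15 TPM in WT UT and 72.2 ± 4.96 TPM in cGAS-/- LPS cells. On the same summed TPM scale, Casp4 stood at 18.5 ± 3.93 TPM in WT UT and 124 ± 21.6 TPM in WT LPS cells. Summed Aim2 was between 44.2 ± 2.89 and 67.6 ± 10.9 TPM over the 4 groups, above summed Nlrp3 and Casp4 in both UT groups. In WT LPS cells the summed means were 35.4 TPM for Nlrp3, 63.9 for Aim2 and 124 for Casp4, and in cGAS-/- LPS cells they were 72.2, 67.6 and 61.8.

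The LPS response in WT cells asks which parts of the inflammasome macrophages supply after stimulation. Casp4 and Nlrp3 rose and Nlrp1b and Nek7 fell, and Aim2, Pycard, Casp1 and Casp8 did not pass (limma on log2(TPM + 1), Benjamini-Hochberg adjusted p under 0.05 over 11887 genes). That is 4 of 8 members, beside 27.6% of all tested genes, with 4.31% of genes called higher and 23.3% lower. Casp4 rose by 2.36 on the log2 scale (standard error 0.22, limma adjusted p = 2.94e-05), a 5.13-fold change of TPM + 1. Its means were 2.64 TPM in WT UT and 17.7 TPM in WT LPS cells. Nlrp3 rose by 1.41 (standard error 0.23, limma adjusted p = 0.0015), a 2.66-fold change of TPM + 1, at means of 3.77 and 11.8 TPM. The added 1 makes these folds smaller than those of TPM itself. Nlrp1b changed by -2.01 (standard error 0.24, limma adjusted p = 1.95e-04). Because of the added 1, this understates the fall of a gene whose LPS samples were near 0. Nek7 changed by -1.43 (standard error 0.35, limma adjusted p = 0.0121). The median over all genes was -0.46 in this comparison, and relative to it Nek7 fell by 0.97, Nlrp1b fell by 1.55, Nlrp3 rose by 1.87 and Casp4 by 2.82. The groups of 4 of 8 members, the same 4, did not overlap, beside 38.2% of all genes tested. With TMM factors, 6 of 8 members passed, and 883 genes were called higher and 1434 lower in place of 512 and 2774.

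Casp1 had a log2 fold change of 0.81 (95% interval -0.02 to 1.65, limma adjusted p = 0.125) and its groups overlapped. Without WT LPS replicate 3 it was 1.35 (adjusted p = 1.76e-05), and Aim2 also passed at 0.59 (adjusted p = 0.0314), which made 6 of 8 members, 4 higher and 2 lower, beside 34.7% of all genes (8.26% higher and 26.5% lower). Pycard went from -0.71 (adjusted p = 0.492) to 0.49 (adjusted p = 0.0722) and Casp8 from -0.30 (adjusted p = 0.668) to 0.45 (adjusted p = 0.0882) when that sample was left out, so their direction rested on it. From the 6 WT samples alone, 2 of 8 members passed beside 6.02% of all genes. These were Casp4 (adjusted p = 0.0134) and Nlrp1b (adjusted p = 0.0227), while Nlrp3 (adjusted p = 0.062) and Nek7 (adjusted p = 0.131) did not.

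In cGAS-/- cells, Nlrp3 and Casp4 rose with LPS and Nlrp1b fell. That was 3 of 8 members, beside 13.8% of all genes tested (4.76% higher and 9.06% lower). Nlrp1b changed by -2.19 (standard error 0.24, limma adjusted p = 1.18e-04). Casp4 rose by 1.80 (standard error 0.22, limma adjusted p = 2.02e-04) and Nlrp3 by 1.38 (standard error 0.23, limma adjusted p = 0.00227), changes of 3.48-fold and 2.60-fold in TPM + 1. The mean TPM went from 1.82 to 8.83 for Casp4 and from 8.71 to 24.1 for Nlrp3. Nek7 had a log2 fold change of -1.11 (adjusted p = 0.0567), Casp1 of 0.86 (adjusted p = 0.184), Aim2 of 0.54 (adjusted p = 0.291), Casp8 of 0.52 (adjusted p = 0.609) and Pycard of -0.29 (adjusted p = 0.875). With TMM factors, 6 of 8 members passed, and 828 genes were called higher and 783 lower in place of 566 and 1077.

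The cGAS-/- samples themselves lay close together, and 7 of 8 members, all but Pycard, did not overlap between UT and LPS, beside 55.7% of all genes tested. The shared estimate of the spread in this fit included the WT LPS samples. With WT LPS replicate 3 left out, 7 of 8 members passed, 5 higher and 2 lower, beside 30.8% of all genes (9.19% higher and 21.6% lower). From the 6 cGAS-/- samples alone, the count was also 7, beside 44.6% of all genes (12.7% higher and 32% lower). From the 6 samples alone, Casp1 had an adjusted p of 1.35e-04, Nek7 of 5.74e-05, Aim2 of 0.0142 and Casp8 of 8.2e-04. Pycard did not pass in either case (adjusted p = 0.225 and 0.115).

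**Figure D2:**
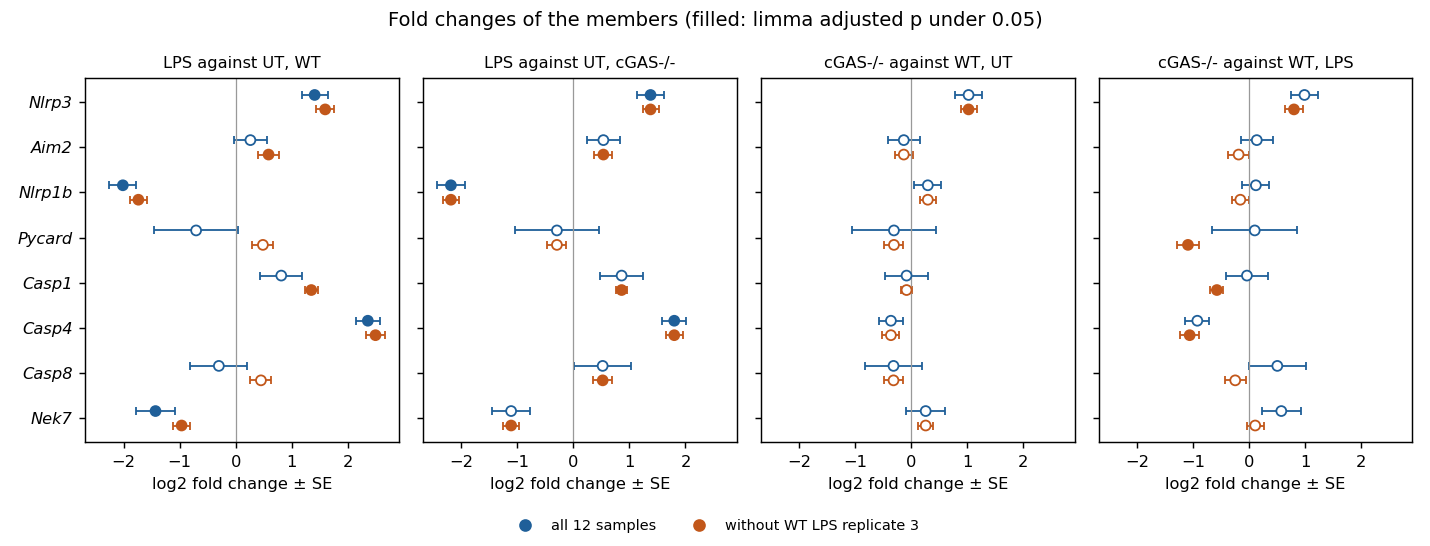
Log2 fold changes (horizontal axes) with standard errors of the 8 members in 4 comparisons, from the fit to all 12 samples (blue) and without WT LPS replicate 3 (orange); filled points have a limma adjusted p under 0.05. Casp4 and Nlrp1b are filled in both LPS comparisons under both fits, and Pycard in LPS-treated cells moves from 0.10 to -1.09 between genotypes when that sample is left out.

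The comparison of genotypes asks whether the supply of inflammasome parts differs between cGAS-/- and WT cells, whose mice also came from different sources. In UT cells no member passed in the limma fit, beside 1.83% of all genes called, and 1 of 8 had an unadjusted p under 0.05, beside 8.08% of all genes. That member was Nlrp3, which had a log2 difference of 1.02, cGAS-/- over WT (standard error 0.23, limma adjusted p = 0.0574). Nlrp3 differed 2.03-fold in TPM + 1, at means of 3.77 TPM in WT and 8.71 TPM in cGAS-/- cells, with no overlap of samples. It passed in 10 of 24 alternative fits, with adjusted p between 3.45e-04 and 0.279 and the same direction in all 24. Without WT LPS replicate 3 its adjusted p was 0.00242, the only 1 of 8 members to pass there beside 5.33% of all genes. Over the list, 4 of 8 members did not overlap between the genotypes in UT cells, beside 30.5% of all genes tested. Nlrp1b was higher in cGAS-/- samples by 0.30 (95% interval -0.24 to 0.83), Nek7 by 0.26 (-0.50 to 1.02), and Casp8 differed by -0.32 (-1.43 to 0.80), all intervals that included 0. From the 6 UT samples alone, 2 of 8 members passed beside 10.4% of all genes, Nlrp3 (adjusted p = 0.0138) and Casp8 (adjusted p = 0.0346).

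With LPS, no member passed either in the limma fit, beside 2.36% of all genes called, and 2 of 8 had an unadjusted p under 0.05, beside 18.8% of all genes. These were Nlrp3 and Casp4, which were also the 2 members whose genotypes did not overlap, beside 17.7% of all genes tested. Nlrp3 was higher in cGAS-/- cells by 0.99 (standard error 0.23, limma adjusted p = 0.0564) and Casp4 was lower, at -0.92 (standard error 0.22, limma adjusted p = 0.0534). The median of all genes was 0.20 in this comparison, and relative to it the difference of Nlrp3 was 0.79 and that of Casp4 was -1.12. Each passed in 7 of 24 alternative fits, with the same direction in all 24 and adjusted p between 0.00603 and 0.555 for Nlrp3 and between 0.0043 and 0.586 for Casp4. The highest of these values came from the 6 LPS samples alone, where no member passed in the limma fit and 0.0421% of all genes did.

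Without WT LPS replicate 3, 4 of 8 members passed between genotypes in LPS cells, 1 higher and 3 lower, beside 8.28% of all genes (3.84% higher and 4.44% lower). Nlrp3 was higher in cGAS-/- cells by 0.80 (adjusted p = 0.0137). Casp4 (-1.06, adjusted p = 0.0043), Pycard (-1.09, adjusted p = 0.00683) and Casp1 (-0.57, adjusted p = 0.0141) were lower. With all samples, the log2 fold changes of Pycard and Casp1 were 0.10 (95% interval -1.56 to 1.77) and -0.04 (-0.87 to 0.80), so both calls rested on leaving out that sample. For Aim2, Nlrp1b, Casp8 and Nek7 the intervals of the difference with all samples were -0.50 to 0.78, -0.41 to 0.66, -0.61 to 1.62 and -0.18 to 1.34. Without WT LPS replicate 2, 3 of 8 members passed, 2 higher and 1 lower, beside 27.9% of all genes (23.9% higher and 3.98% lower). They were Nlrp3 (1.12, adjusted p = 0.00603), Casp4 (-0.82, adjusted p = 0.0158) and Nek7 (0.95, adjusted p = 0.0325), and Nek7 passed in no other alternative fit of this comparison.

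Whether the LPS response itself differed between genotypes was tested with an interaction term, the response in cGAS-/- minus that in WT cells. No member passed in the limma fit, beside 0.9% of all genes called, and none had an unadjusted p under 0.05, beside 11.1% of all genes. The lowest value was -0.56 for Casp4 (95% interval -1.23 to 0.11, limma adjusted p = 0.541) and the highest 0.82 for Casp8 (-0.76 to 2.40, limma adjusted p = 0.678). For Nlrp3 it was -0.03 (-0.76 to 0.70, limma adjusted p = 0.972). The difference of Nlrp3 between genotypes was thus 1.02 without and 0.99 with LPS, and no change of it with LPS was detectable. With WT LPS replicate 3 left out, no member passed either, beside 4.56% of all genes, and the lowest values were -0.78 for Pycard, -0.70 for Casp4 and -0.49 for Casp1 (limma adjusted p = 0.135, 0.134 and 0.122).

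A ratio of members within a sample does not depend on how the sample is scaled, so each of the other 7 members was divided by Casp1. The ratio of Nlrp3 to Casp1 was between 0.142 and 0.19 in WT UT and between 0.349 and 0.472 in cGAS-/- UT cells. With LPS, it was between 0.215 and 0.464 in WT and between 0.571 and 0.683 in cGAS-/- cells. The genotypes did not overlap in either treatment, with the cGAS-/- samples higher. The ratio of Casp4 to Casp1 was between 0.312 and 0.763 in WT LPS and between 0.175 and 0.25 in cGAS-/- LPS cells, with the cGAS-/- samples lower. In UT cells that ratio overlapped, at 0.0928 to 0.129 in WT and 0.0777 to 0.0969 in cGAS-/- cells. Nek7 to Casp1 was between 0.108 and 0.137 in WT LPS and between 0.187 and 0.21 in cGAS-/- LPS cells, against 0.629 to 0.724 and 0.821 to 0.905 in UT cells. Thus WT LPS replicate 3 was inside its group for Nek7 to Casp1 and stood highest for the other 2 ratios. Over all 7 ratios, the genotypes did not overlap for 4 in UT cells, beside 28.7% of all genes divided by Casp1, and for 3 in LPS cells, beside 32.8%. Between UT and LPS, 6 of 7 ratios did not overlap in WT and 7 of 7 in cGAS-/- cells, beside 61.1% and 76.9%. An exact permutation test of 3 samples against 3 cannot go below 0.1, so no p is given.

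**Figure D3:**
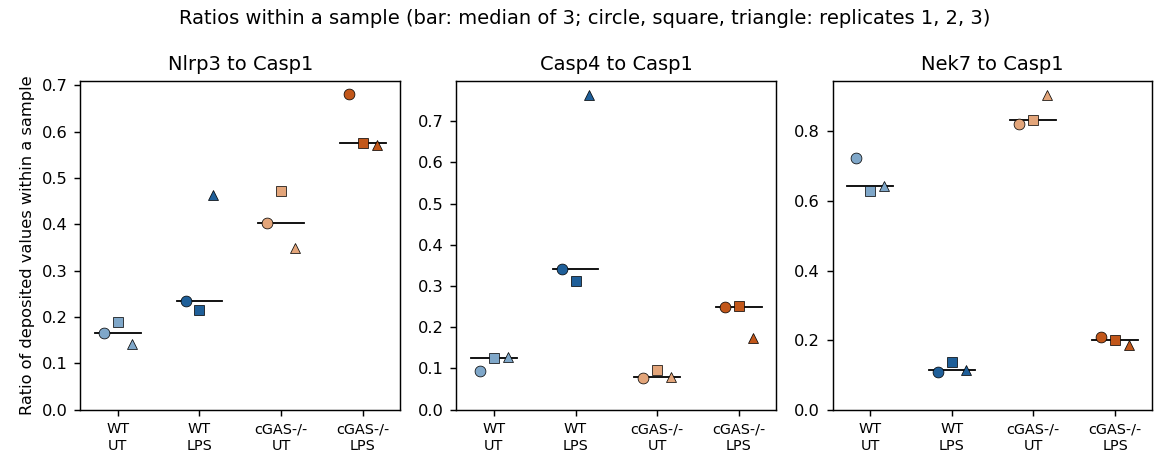
Ratios of Nlrp3, Casp4 and Nek7 to Casp1 within each sample (vertical axes, from 0) in the 4 groups of 3 samples; bars are medians and symbols mark replicates 1, 2 and 3. Nlrp3 to Casp1 is higher in the cGAS-/- samples in both treatments, and Casp4 to Casp1 is higher in WT LPS (0.312 to 0.763) than in cGAS-/- LPS samples (0.175 to 0.25).

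Other genes of the pathway were taken from 5 lists, of which 55 genes were tested. With LPS, 18 of 55 rose and 10 fell in WT cells, beside 4.31% of all genes called higher and 23.3% called lower. For cGAS-/- cells the counts were 19 and 4, beside 4.76% and 9.06% of all genes. With WT LPS replicate 3 left out, WT cells had 21 of 55 higher and 12 lower (all genes 8.26% and 26.5%), while cGAS-/- cells had 23 and 11 (all genes 9.19% and 21.6%). The lists below are small and are read against these shares. The substrates and pore formers had 4 of 7 tested genes higher and 1 lower in WT, and 3 of 7 higher in cGAS-/- cells. Their median was 3.18 in WT and 1.98 in cGAS-/- cells, where the medians of all genes were -0.46 and -0.20. Il1b, which encodes the pro-form of IL-1β that caspase-1 cleaves, rose by 4.33 in WT and by 7.22 in cGAS-/- cells (limma adjusted p = 1.45e-04 and 4.75e-06). Il1rn, the gene of the IL-1 receptor antagonist, rose by 4.08 and 3.14 (limma adjusted p = 3.36e-05 and 2.34e-04). Il18, the other cytokine substrate, did not pass in either genotype with all samples (0.32 and -0.02, limma adjusted p = 0.612 and 0.994). When WT LPS replicate 3 was left out, Il18 passed for LPS in WT cells (1.00, limma adjusted p = 8.36e-04), between genotypes with LPS (-1.10, limma adjusted p = 0.00217) and in the interaction (-1.02, limma adjusted p = 0.0242). None of these calls passed in any other alternative fit. With all samples, Il18 was at -0.42 between genotypes with LPS and at -0.33 in the interaction (limma adjusted p = 0.61 and 0.829). With LPS, cGAS-/- cells had more Il1b than WT cells, by 3.11 (limma adjusted p = 0.00907), and less Il1rn (-2.15, limma adjusted p = 0.0168). Leaving out WT LPS replicate 3 gave 2.57 and -1.71 (limma adjusted p = 0.0041 and 0.00356). The list then had 5 of 7 genes higher in WT and 4 of 7 in cGAS-/- cells, with 1 lower in either. For Il1b the paper reports the opposite order by PCR, with more IL-1β RNA in LPS-activated WT than in cGAS-/- BMDMs. The reason for this difference was not tested.

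Among the NLRP3 and NLRP1 regulators, 6 of 25 tested genes rose and 8 fell in WT, and 7 rose and 3 fell in cGAS-/- cells, against 23.3% and 9.06% of all genes called lower. With that sample left out, the counts in WT cells were 7 and 8, and those in cGAS-/- cells 10 and 7. The guanylate-binding protein genes Gbp2, Gbp3, Gbp5 and Gbp7, whose family exposes bacterial LPS to caspase-11, had the largest changes of this list in both genotypes. Gbp2 rose by 4.36 in WT and 4.98 in cGAS-/- cells (limma adjusted p = 1.99e-05 and 8.53e-06), and Gbp5 by 3.18 and 2.82 (limma adjusted p = 5.46e-05 and 1.40e-04). UT samples of Gbp5 held only 0.0575 to 0.382 TPM, so the added 1 sets the size of its change (1.6 to 4.75 in WT and 1.21 to 5.09 in cGAS-/- cells over the alternatives), and the genotypes cannot be ordered by it. P2rx7, the ATP-gated channel gene upstream of NLRP3, fell by 1.09 in WT cells (limma adjusted p = 0.0243, passing in 17 of 24 alternative fits and not with TMM factors) and had a value of -0.38 in cGAS-/- cells (limma adjusted p = 0.517). Nek6, the closest relative of Nek7, was lower in cGAS-/- than in WT cells with LPS (-1.18, limma adjusted p = 0.0111).

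The caspase-8 partners and necroptosis genes had 4 of 8 tested genes higher in each genotype and none lower, where 4.31% of all genes in WT and 4.76% in cGAS-/- cells were called higher. With that sample left out, 4 were higher and 1 lower in each genotype. With all samples, the 4 higher in WT cells were Zbp1, a sensor of nucleic acids (4.21, limma adjusted p = 3.7e-04), Mlkl, the pore former of necroptosis (2.27, limma adjusted p = 0.00184), Cflar, the inhibitor c-FLIP (1.43, limma adjusted p = 0.00167), and Tnfaip3, the inhibitor A20 (1.11, limma adjusted p = 0.00722). Without WT LPS replicate 3 their WT values were 5.01, 2.78, 1.58 and 1.05. From the 6 WT samples alone, Mlkl and Cflar did not pass (limma adjusted p = 0.0508 and 0.0678). Tnfaip3 did not pass there or with sample weights (limma adjusted p up to 0.116). In cGAS-/- cells the values of the 4 were 5.43, 2.50, 1.53 and 1.35, and all passed. Among the other caspases and their inhibitors, 1 of 8 tested genes passed in each genotype, and with WT LPS replicate 3 left out a further gene was lower in each, Casp2 in WT and Casp6 in cGAS-/- cells (named after their values were seen). It was Birc3, the inhibitor cIAP2, at 0.90 in WT and 2.41 in cGAS-/- cells (limma adjusted p = 0.026 and 9.5e-05). The WT call passed in 19 of 24 alternative fits and was lost with a common total, from the 6 samples alone and without any of the 3 WT UT samples. Of the other sensors, 3 of 7 rose and 1 fell in WT cells, and 4 rose and 1 fell in cGAS-/- cells, while without WT LPS replicate 3 the counts were 4 and 1 in both. Ifi204 and Mndal, relatives of Aim2, rose in both genotypes by 2.71 and 1.56 in WT and by 2.49 and 1.76 in cGAS-/- cells. The WT call of Mndal was lost with a common total and from the 6 WT samples alone (limma adjusted p up to 0.128). Nod1, the other sensor higher in WT cells (1.27, limma adjusted p = 0.0327), passed there in 16 of 24 alternative fits.

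Between genotypes, no gene of the 55 passed in UT cells in the limma fit, and 5 passed with LPS, which were Il1b, Il1a and Birc3 higher and Il1rn and Nek6 lower in cGAS-/- cells. The share of 9.09% stood beside 2.36% of all genes. Of 24 alternative fits, Il1a passed in 23, Il1b in 21, Il1rn and Nek6 in 20 each and Birc3 (1.13, limma adjusted p = 0.0493) in 9, and from the 6 LPS samples alone none of these 5 passed. Once WT LPS replicate 3 was left out, 6 of 55 were lower and none higher in UT cells, beside 5.33% of all genes, and 4 were higher and 8 lower with LPS, beside 8.28%.

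**Figure D4:**
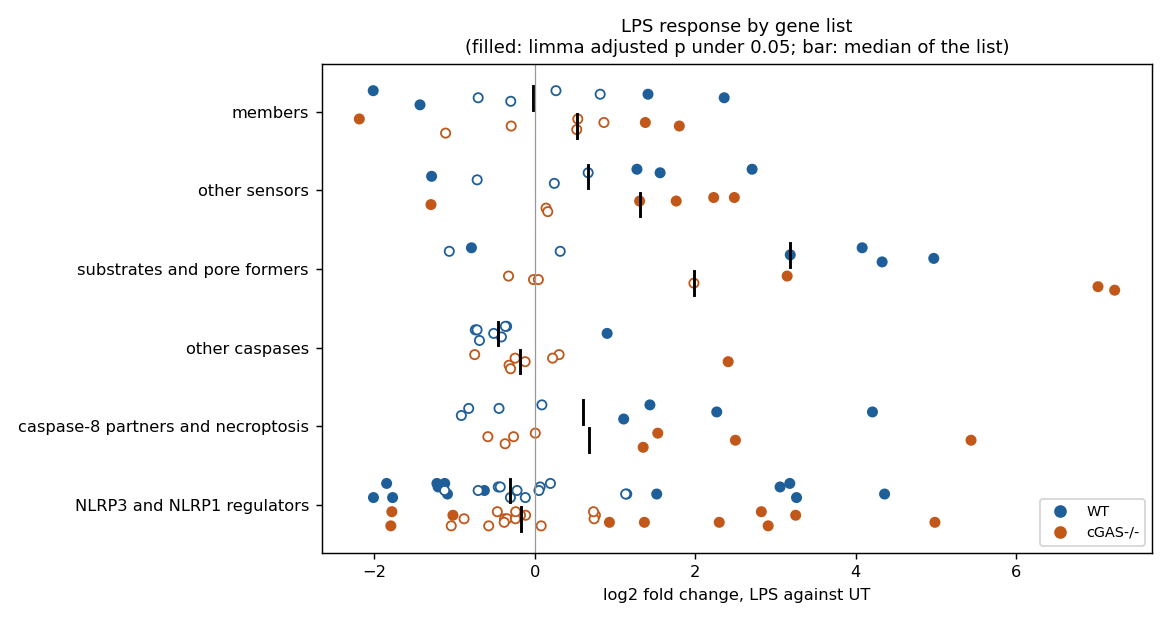
Log2 fold changes of LPS against UT (horizontal axis) for the members and 5 lists of pathway genes, in WT (blue) and cGAS-/- cells (orange); each point is a gene, filled points have a limma adjusted p under 0.05 and black bars are list medians. Members lie on both sides of 0, with medians of -0.02 in WT and 0.53 in cGAS-/- cells, while Il1a and Il1b reach 7.02 and 7.22 in cGAS-/- cells.

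The 3 tested genes whose pattern over the 12 samples was most like that of each member were found by the root mean square difference of centred log2 values. For Nlrp3 they were Rab32 (0.26), Gm13012 (0.33) and Mthfd2 (0.34), where the SD of Nlrp3 itself was 0.92. Casp4 was nearest to Trex1 (0.28), Sp110 (0.29) and Psme2b (0.30), with an SD of 1.16. Nlrp1b was nearest to Gyg (0.10), Vipas39 (0.12) and Gpr137b-ps (0.17), with an SD of 1.13. Nek7 was nearest to Ctsa (0.058), Pctp (0.096) and Wipf1 (0.11), with an SD of 0.79. For Casp1 they were Ctsz, Adar and Gm10108 (0.14 to 0.17), for Casp8 Rnpep, Mllt6 and Cox19 (0.086 to 0.14), for Aim2 Gm3625, Gm43068 and Ttc39b (0.15 to 0.16), and for Pycard BC028528, Apoc2 and Ethe1 (0.22 to 0.23). All these genes share the libraries with the members, WT LPS replicate 3 included.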

How the data were processed

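RNA-seq of 12 BMDM samples was analysed, in 4 groups of 3 set by the sample labels. STAR (mapping to GRCm39) and Kallisto (quantification) were used by the authors, and fastp is named in the submitters' processing notes. The deposited values were taken as TPM, averaged by the authors over the transcripts of a symbol, a unit read from the behaviour of the values. Read depth is unknown, so no counting interval was computed. The deposited table ends within chromosome 13, and genes such as Gsdmd, Nlrc4 and Ripk3 were not analysed here.

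Genes at 1 TPM or more in at least 3 of 12 samples, after scaling each sample to a total of 1000000, were kept (11887 of 38739). Limma 3.58.1 in R 4.3.3 was fitted to log2(TPM + 1), with 1 mean per group over 12 samples and a variance trend, and adjusted by Benjamini-Hochberg (threshold 0.05). The methods' further threshold, a log2 fold change beyond 2, is not used for calls here. The fit was tested on simulated data drawn with the same spread in every group. The WT LPS samples spread more than the other groups, so that test does not cover this feature of the data. Alternatives were pseudocounts of 0.1 and 5, no filter, a filter of 5, TMM factors, quantile normalization, a common total, a replicate block, no trend, sample weights, protein-coding genes only, the 6 samples compared, and each sample left out. Shared sequence was sought with blastn 2.17.0 (at least 100 bases, 90% identity) in GENCODE transcripts. All 8 members are described. Pathway genes are named where they passed, at most 4 per list and comparison by size of change, with Il1b, Il18, Il1rn and P2rx7 always; a few further values are left out for length. The members and lists were chosen with earlier results of these data known, and the ratios to Casp1 after their values were seen. 2 marker genes are not reported here and were left out of their lists.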

Additional observations from a re-analysis of the deposited data

Results flagged for a closer look

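The LPS response of 2 of 55 pathway genes differed between genotypes by the interaction term of the limma fit, beside 0.9% of all genes. With WT LPS replicate 3 left out, 6 of 55 did, 3 higher and 3 lower, beside 4.56% of all genes, the further ones being Il1b (2.36, limma adjusted p = 0.0408), Birc3 (1.43, limma adjusted p = 0.0359), Il18bp (-2.18, limma adjusted p = 0.00284) and Il18 (-1.02, limma adjusted p = 0.0242). For Nek6, the relative of Nek7, the response in cGAS-/- minus that in WT cells was -1.49 on the log2 scale (limma adjusted p = 0.0385), with samples between 7.40 and 7.90 TPM in WT UT, 5.06 and 7.90 in WT LPS, 9.36 and 10.2 in cGAS-/- UT, and 1.99 and 2.20 in cGAS-/- LPS cells. It passed in 10 of 23 alternative fits, with adjusted p between 7.7e-04 and 0.132. For Il1a, an IL-1 family gene, it was 2.05 (limma adjusted p = 0.0438), with samples between 0.793 and 1.15 TPM in WT UT, 41.4 and 84.9 in WT LPS, 0.505 and 1.18 in cGAS-/- UT, and 205 and 279 in cGAS-/- LPS cells. It passed in 9 of 23 alternative fits, with adjusted p between 0.00418 and 0.16. Both kept their direction in all 23 fits. Without WT LPS replicate 3 they were -1.32 for Nek6 and 1.79 for Il1a (limma adjusted p = 7.7e-04 and 0.00692).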

How the results depend on the processing

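Across the alternatives, 848 of 952 values of the members kept direction and side of the threshold, 57 moved past it, 2 no longer passed and 45 changed sign; of 1288 values of named pathway genes, 1171 kept both, 16 moved past it, 89 no longer passed and 12 changed sign. The LPS responses of Casp4 and Nlrp1b passed in both genotypes in all 24 fits. The causes of the changes below were not tested. Depth is unknown, and 3 samples a group, with WT LPS replicate 3 apart from the others, limit the precision. The other WT LPS samples also varied more than those of other groups. Sample weights, lower for samples further from the fit, were 0.346, 0.159 and 0.0352 for WT LPS replicates 1, 2 and 3. In the other groups they were between 1.38 and 2.57. The counts of the pathway lists were repeated only without replicate 3, so they do not show how far they rest on replicate 2.

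In UT cells, genes passing between genotypes numbered, of 11887 unless given, 92 with a pseudocount of 0.1, 108 of 7403 with a filter of 5, 1369 with sample weights and 1241 from 6 samples, against 218. Members passing there numbered 1 with no filter, TMM factors, quantile normalization, no trend, sample weights or protein-coding genes, and 2 from 6 samples, against 0, where 235 of 23590, 195, 225, 195, 1369 and 232 of 8023 genes passed under the first 6 settings in that order. In LPS cells, 163 genes passed with a pseudocount of 0.1, 171 of 23590 with no filter, 508 with TMM factors, 552 with quantile normalization and 5 from 6 samples, against 281. Members passing there numbered 2 with a pseudocount of 5, a filter of 5, TMM factors, quantile normalization or no trend, against 0, where 339, 227 of 7403, 508, 552 and 274 genes passed in that order. For LPS in WT, 6 samples gave 716 genes and 2 members, against 3286 and 4. For LPS in cGAS-/- cells, sample weights gave 5746 genes and 7 members, and 6 samples gave 5305 and 7, against 1643 and 3, while TMM factors gave 1611 genes and 6 members, and quantile normalization 1799 and 6. For the interaction, 32 genes passed with a pseudocount of 0.1, 205 with 5, 292 with sample weights and 163 of 8023 protein-coding genes, against 107.

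With each sample left out in turn, genes passing numbered 122 to 633 between genotypes in UT cells, 77 to 3312 in LPS cells, 1961 to 5785 for LPS in WT, 1020 to 3663 for LPS in cGAS-/- cells and 42 to 1496 for the interaction. Members passing numbered 0 to 1, 0 to 4, 4 to 6, 3 to 7 and 0. Leaving out WT LPS replicate 2 gave the highest of these gene counts, 3312, 5785 and 1496, for LPS genotypes, LPS in WT and the interaction.

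Samples with the same replicate number did not deviate together (12 correlations between -0.0315 and 0.0383), so the numbers are not a pairing. With the replicate block, 170, 179, 2955, 1414 and 54 genes passed in the same order of comparisons, and the number of members passing did not change in any of them. Among the named pathway genes, the interaction calls of Nek6 and Il1a and the call of Birc3 between genotypes with LPS were lost with the block.

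Some signs changed. Between genotypes with LPS, Aim2 was -0.075 with TMM factors, -0.12 with quantile normalization and -0.059 with sample weights (-0.18 to 0.40 over left-out samples), Casp1 was 0.086 with a common total (-0.57 to 0.30), Casp8 was -0.24 to 1.07 over left-out samples, Nlrp1b was -0.036 with quantile normalization and -0.0075 with sample weights (-0.15 to 0.39), and Pycard was -0.020 with a pseudocount of 5, -0.11 with TMM factors, -0.14 with quantile normalization and -0.94 with sample weights (-1.09 to 0.82). For LPS in WT cells, Casp8 was 0.30, 0.092 and 0.17 with TMM factors, quantile normalization and sample weights (-0.87 to 0.45), and Pycard 0.33 with sample weights (-1.42 to 0.49). For LPS in cGAS-/- cells, Pycard was 0.031 with TMM factors. For the interaction, Aim2 was -0.0081 with TMM factors and -0.042 with quantile normalization (-0.052 to 0.53), Casp1 was -0.26, -0.19 and -0.33 with TMM factors, quantile normalization and sample weights (-0.49 to 0.38), Nek7 was -0.045 with quantile normalization (-0.15 to 0.69), Nlrp1b was 0.32 with a pseudocount of 0.1 (-0.45 to 0.093), Nlrp3 was 0.16 with a pseudocount of 5 and 0.13 with a common total (-0.22 to 0.10), and Pycard was -0.66 with sample weights (-0.78 to 1.13). Among pathway genes, P2rx7 between genotypes with LPS was 0.071 with sample weights (-0.43 to 0.28), and Il18 for LPS in cGAS-/- cells was 0.26 with TMM factors and 0.18 with quantile normalization (-0.11 to 0.083). Over left-out samples Il18 was -0.19 to 0.0040 between UT and -1.10 to 0.0071 between LPS genotypes, -0.11 to 1.00 for LPS in WT and -1.02 to 0.094 for the interaction, and Il1b between UT genotypes was -0.14 to 0.57.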
